A study of Vitis vinifera with 6 samples.

Results

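Genes of the anthocyanin branch and of anthocyanin transport into the vacuole were read in the seed content of young grape berries. The choice covered 7 genes by identifier: the glucosyltransferase UFGT, the O-methyltransferase AOMT, the MYB factors MYBA1 and MYBA2, the glutathione S-transferase GST4, and the MATE transporters AM1 and AM3. Of these 7, 6 had values among the 29536 genes of the table used, and AOMT was not analysed here. The plants were F1 offspring of a cross of Red Globe and Crimson Seedless, both coloured table grapes, grafted on a common rootstock and grown in a single field. The seedless class held 3 hybrids labelled sdi+, whose stenospermocarpic berries hold only a seed trace, and the seeded class held 3 hybrids labelled sdi-, from which whole seeds were taken. Each library came from another hybrid, was collected 4 weeks after anthesis from berries of 10 to 12 mm, and pooled the seed content of 12 to 50 fruits from at least 2 clusters. Replicate spread thus includes differences between hybrids, and classes differ in tissue as well as in genotype. Berry colour of the hybrids themselves was not among the sample facts used here.

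Anthocyanins are the red and blue pigments of grape skin, and their synthesis shares its early enzymes with that of the proanthocyanidins, the tannins of the seed coat. UFGT adds glucose to anthocyanidins and so commits them to stable pigment, while AOMT methylates the pigment. MYBA1 and MYBA2 are the activators of UFGT at the berry colour locus of chromosome 2. GST4 takes part in moving anthocyanins to the vacuole, and AM1 and AM3 are transporters of the vacuolar membrane known for carrying acylated anthocyanins. In coloured cultivars this branch is switched on in the berry skin at the onset of ripening, a later stage than the pea-size berries sampled here.

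Values are RPKM, read counts scaled by the length of the gene model and by a library total, and levels of different genes are compared only on this per-length scale. Library totals recovered from the steps of low values were 6576771 to 9267653 reads. In a gene of 1 kb, 3 reads, the limit that a count of 0 allows, are worth 0.324 to 0.456 RPKM in a single library and 0.0655 RPKM over the 6 libraries together. Such limits cover counting error only. Seedless replicate 1 stood apart: it correlated at 0.847 and 0.862 with the other seedless libraries across genes on the log2 scale, whereas those correlated at 0.944 with each other. As a check of the labelled seed tissue, 4 genes of seed-coat tannin and ovule identity (ANR, LAR1, MYBPA1 and AGL11) stood at 22.1 RPKM or more in every library. Markers of berry flesh or skin were not looked up, so a part of such tissue in the samples was not tested.

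The core of the pigment branch was off or almost off in both classes. MYBA1, MYBA2 and GST4 were listed at 0 or at a value that fits at most 3 reads in every library of both classes, the rule used here for silent. UFGT met that rule in seedless traces and missed it in seeds by 1 read in 1 library. The 2 transporters were the exception: AM1 was clearly expressed in all 6 libraries and rose in seedless traces, and AM3 was detected in all 6 at a low level. AM1 had the highest mean level and AM3 the next in both classes. AM1 did not overlap with AM3 in either class, and AM3 did not overlap with UFGT, but UFGT, MYBA1, MYBA2 and GST4 were not separable from each other.

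**Figure D1:**
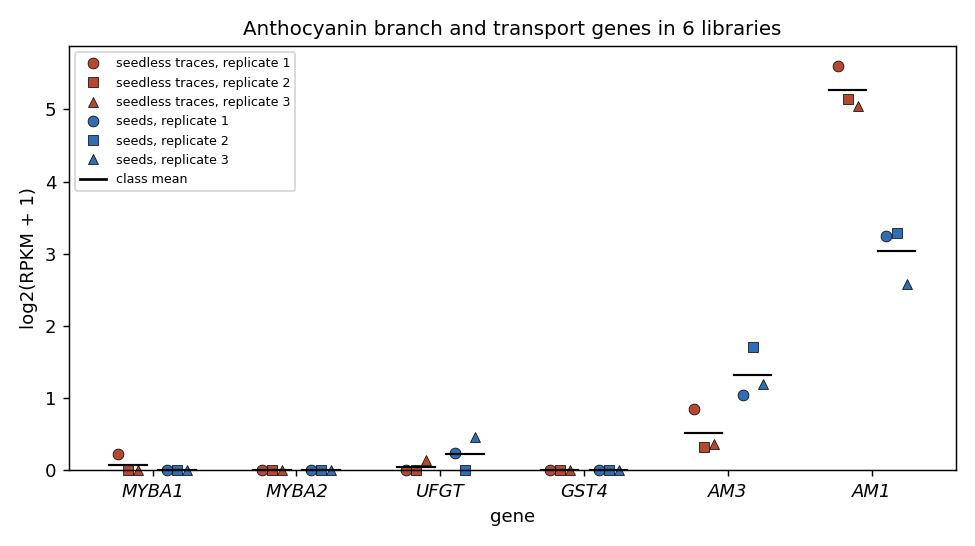
Levels of the 6 genes in each library, as log2(RPKM + 1) on the vertical axis. Red points are the 3 seedless traces and blue points the 3 seeds, marker shapes give the replicate, and black lines are class means of the log2 values. MYBA1, MYBA2, UFGT and GST4 lie at or near 0, and AM1 is the only gene above 3 RPKM.

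Among the regulators, MYBA2 (VIT_02s0033g00390, chromosome 2) was listed at 0 in all 6 libraries. MYBA1 (VIT_02s0033g00410, chromosome 2) was listed at 0.173 RPKM in seedless replicate 1 and at 0 in the other 5 libraries. That value fits 1 read at a gene-model length of 808 bases, although a model some whole number of times longer with as many more reads would fit too. Its chance of fitting was 0.024, above the limit of 0.01 set for recovered genes, so the count of 1 read, and with it the silent call by reads, is uncertain; the value itself was under 0.5 RPKM. The classes therefore could not be told apart for either activator at this depth. Being listed at 0 was common in the table, at 16.9% of its genes. Near-identical copies lie close to each other at the colour locus, so the level of any 1 of them is uncertain where reads could match several.

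Most of the surrounding identifiers were quiet as well. Of the 11 further genes within 5 identifiers of MYBA1 or MYBA2, 8 were listed at 0 in all libraries and 9 stayed under 1 RPKM in all. One of the silent neighbours, VIT_02s0033g00450, is the related gene MYBA3. The neighbour VIT_02s0033g00420, directly after MYBA1 in identifier order, was expressed at a mean of 95.1 RPKM in traces and 91.9 in seeds. It did not pass the test (limma adjusted p = 0.871). MYBA6 and MYBA7, related MYB genes of chromosome 14 that are not at the colour locus, were equally low: MYBA7 was listed at 0 throughout, and MYBA6 reached 0.366 RPKM in seeded replicate 3 and was listed at 0 elsewhere.

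The enzyme UFGT (VIT_16s0039g02230, chromosome 16) was listed at 0, 0 and 0.106 RPKM in seedless replicates 1 to 3. In seeded replicates 1 to 3 it was listed at 0.179, 0 and 0.372 RPKM. The recovered gene-model length was 1433 bases, which turns these values into 1 read over the 3 trace libraries and 2, 0 and 4 reads in the seed libraries. The classes overlapped, since both held libraries at 0. Summed over a class, 1 read in traces (exact 95% Poisson interval 0.0253 to 5.57) stood against 6 in seeds (2.2 to 13.1), intervals that overlap and cover counting error only. An exact permutation test of the class means, two-sided, gave p = 0.4 (0.533 adjusted over the 4 members with any reads), where 0.1 is the smallest p that 3 against 3 can give. The difference was not detectable at this depth.

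UFGT and anthocyanidin reductase (ANR, VIT_00s0361g00040) draw on the same anthocyanidins, the former for pigment and the latter for tannin. In traces ANR stood at 92.2, 109 and 124 RPKM in replicates 1 to 3. It was higher in seeds, at 220, 180 and 275 RPKM. The RPKM of UFGT came to 0.0853% of that of ANR in seedless replicate 3, to 0.081% in seeded replicate 1 and to 0.135% in seeded replicate 3, and to none in the other libraries. At this branch point UFGT was under 1% of ANR in every library of both classes.

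On the transport side, GST4 (VIT_04s0079g00690, chromosome 4) was listed at 0 in all 6 libraries, with no class difference to test. Of the 10 identifiers around it, 2 more were listed at 0 in all libraries and 4 stayed under 1 RPKM in all. The 5 that were tested did not pass. One of these, the adjacent VIT_04s0079g00680, had 29 RPKM in seedless replicate 1 and means of 17.8 RPKM in traces and 7.59 in seeds, a difference of 1.03 in log2 terms (adjusted p = 0.121 in limma). Its classes did not overlap.

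AM1 (VIT_16s0050g00930, chromosome 16) was the member with the highest level. Seedless replicates 1 to 3 gave 47.5, 34.4 and 32.1 RPKM, from 583, 440 and 361 reads. Seeded replicates 1 to 3 gave 8.53, 8.77 and 4.99 RPKM, from 114, 139 and 64 reads. Every trace lay above every seed, with a wide gap between the lowest trace and the highest seed. Traces averaged 38 ± 8.33 RPKM and seeds 7.43 ± 2.11 RPKM (SD, n = 3 each), a ratio of 5.12. Within its library AM1 exceeded 85% to 89.5% of all genes in traces and 54.7% to 62.9% in seeds.

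The rise of AM1 passed the test across all genes, with a log2 fold change of 2.22 on the log2(RPKM + 1) scale (SE 0.25, limma adjusted p = 0.0069). Of the 6 genes, AM1 and AM3 were expressed above the filter of 1 RPKM in at least 3 libraries and so were tested, and AM1 was called. The background in the same fit was 12.3% of 18749 genes called, 7.18% as higher and 5.1% as lower in traces. Classes did not overlap for 39.5% of the genes tested, 19% with the traces higher, as for AM1, and 20.5% with the seeds higher, as for AM3 below. Seedless replicate 1 held the highest AM1 value, and the value in log2 terms was 2.06 when it was left out (limma, adjusted p = 0.00715). The call held in each of 16 alternative fits, with log2 fold changes of 2 to 2.36 and adjusted p of 0.00298 to 0.0328 in limma. In bulk RNA from a whole trace or seed, a higher share of cells that express AM1 and more AM1 transcript per cell cannot be told apart.

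AM3 (VIT_16s0050g00910, chromosome 16) had 0.801, 0.256 and 0.291 RPKM in seedless replicates 1 to 3, from 9, 3 and 3 reads. Seeded replicates 1 to 3 had 1.06, 2.27 and 1.28 RPKM, from 13, 33 and 15 reads. Here every seed lay above every trace, the opposite of AM1, although seedless replicate 1 came close to seeded replicate 1. Traces averaged 0.45 ± 0.305 RPKM and seeds 1.54 ± 0.646 RPKM (SD, n = 3 each). The exact permutation test of class means, two-sided, gave p = 0.1, the smallest this design allows, for AM3 and for AM1 alike. Adjusted over the 4 members with any reads, this permutation test gave p = 0.2 for each. With a log2 fold change of -0.8 (SE 0.3), AM3 missed the threshold (limma, adjusted p = 0.129), as it did in each of the 15 alternative fits that gave AM3 a value, where adjusted p in limma was 0.0615 to 0.333. AM3 entered the test only through the 3 seed libraries, each of which exceeded 1 RPKM, so its gap between classes was in part a condition of being tested.

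The neighbouring transporter genes stood in different proportions in the classes. AM1 had 59.3, 134 and 110 times the RPKM of AM3 in seedless replicates 1 to 3. In seeded replicates 1 to 3 the ratio was 8.03, 3.86 and 3.91. On a log2 scale with no pseudocount the ratio was 6.58 ± 0.62 in traces and 2.31 ± 0.61 in seeds (SD, n = 3 each), which is 4.27 apart. Taken as log2(RPKM + 1) of AM1 minus that of AM3, as planned, the gap shrank to 3.02 (4.75 ± 0.07 in traces and 1.73 ± 0.43 in seeds), because adding 1 outweighs the low AM3 values. An exact permutation test, two-sided, gave p = 0.1 for either form, the smallest p this design allows, so it cannot pass a threshold of 0.05. That outcome was fixed in advance. AM1 was higher and AM3 lower in every trace than in any seed, so their ratio had to separate the classes.

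A further gene beside AM3 rose more steeply than AM1. VIT_16s0050g00900, the identifier directly before AM3 and named by neither the table nor the RefSeq gene list, had 24.1, 21 and 11.1 RPKM in seedless replicates 1 to 3. In seeded replicates 1 to 3 it had 0.486, 0.0682 and 0.0843 RPKM. This corresponds to 636 reads over the traces and 8 over the seeds, a ratio of read rates of 92.1 with an exact 95% interval of 46.5 to 214 that covers counting error only. Its log2 fold change was 3.97 (SE 0.33, limma adjusted p = 0.00378), but it entered the test only through the 3 traces, so a gap between classes was a condition of being tested. Of the 11 identifiers around AM1 and AM3, 5 were tested, and this was the only one of them called. Between AM3 and AM1, VIT_16s0050g00920 was listed at 0 in every library. On the far side of AM1, VIT_16s0050g00950, VIT_16s0050g00960 and VIT_16s0050g00970 had log2 fold changes of 0.06, 0.12 and 0.02, none of which passed. Past these, VIT_16s0050g00980 and VIT_16s0050g00990 stayed under 1 RPKM in every library and were not tested. Their means were 0.235 and 0.486 RPKM in traces and 0.0179 and 0.047 in seeds. Every trace lay above every seed for both, but for VIT_16s0050g00980 seedless replicate 1 and seeded replicate 3 each held 1 read. In the alternative fit without the filter neither passed (limma adjusted p = 0.298 and 0.0627). Whether similar copies in this row of genes exchanged reads was not tested.

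**Figure D2:**
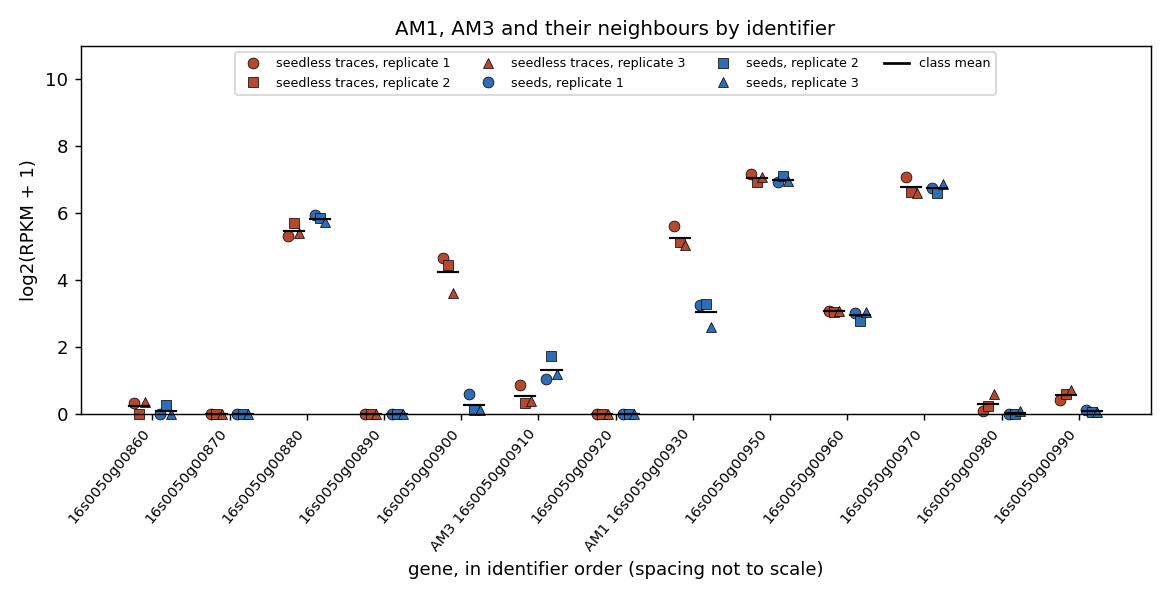
AM1, AM3 and the 11 genes within 5 identifiers of either, in identifier order, with log2(RPKM + 1) on the vertical axis. Red points are seedless traces, blue points seeds, marker shapes replicates and black lines class means of the log2 values. AM1 and VIT_16s0050g00900 stand higher in traces, AM3 between and beside them stands lower there, and the 3 genes after AM1 lie at like levels in both classes. The last genes shown, VIT_16s0050g00980 and VIT_16s0050g00990, stay under 1 RPKM. Their means are higher in traces, but neither passed in the fit without the filter.

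The pattern of AM1 over the 6 libraries was shared with many genes. By Pearson correlation of log2(RPKM + 1), 593 genes, 3.16% of those tested, exceeded 0.95 with AM1. The closest was VIT_12s0142g00100 (r = 0.9988), which had 54.6, 48.3 and 46.8 RPKM in traces and 29.6, 31 and 26.2 in seeds. VIT_04s0044g01430 followed (r = 0.9986), with 115, 72.9 and 62.9 RPKM in traces against 9.53, 10.2 and 5.56 in seeds. The neighbour VIT_16s0050g00900 had r = 0.9776. These values describe 6 points that fall into 2 classes, and libraries and totals are common to all genes.

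While AM1 rose in traces, none of the listed enzymes that supply the pathway did. Of 10 listed genes of the shared trunk, from chalcone synthase to leucoanthocyanidin dioxygenase (LDOX), all were tested, 6 fell in traces, none rose and 4 did not pass. Over all genes tested 7.18% rose and 5.1% fell. In this list the median log2 fold change was -1.25, against -0.04 over all genes. The list was chosen with earlier results of these data known, so these counts and this median only describe it and are no test. Dihydroflavonol reductase (DFR), which makes the leucoanthocyanidins that both branches use, fell: seeds averaged 190 ± 43.7 RPKM and traces 67.7 ± 13 RPKM (SD, n = 3 each). LDOX, which makes anthocyanidins, had 993, 948 and 912 RPKM in traces and 1660, 1550 and 2250 in seeds. It did not pass (limma adjusted p = 0.057), though its classes did not overlap. LDOX acts directly before UFGT, whose highest level in any library was 0.372 RPKM. In the tannin branch, ANR and LAR1, a leucoanthocyanidin reductase, fell. LAR2 went the other way, at 75.9, 21.5 and 21.1 RPKM in traces and 10.4, 12.5 and 6.19 in seeds. Its classes did not overlap, but its log2 fold change of 1.7 did not pass (limma adjusted p = 0.0799). The median of the 3 genes was -1.04, although they did not move together. Counts of calls over the 27 listed pathway genes depended on single libraries: 10 passed in all, and 3, 3 and 2 without seeded replicate 1, 2 or 3.

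Other regulators of the flavonoid pathway, which are MYB activators of other branches, MYB repressors, and bHLH and WD40 partners of MYB factors, were detected in all 6 libraries, unlike MYBA1 and MYBA2. All 9 listed were tested, 1 rose, 1 fell and 7 did not pass, with a median log2 fold change of 0.37. Set against 7.18% rises and 5.1% falls over all genes, counts of 1 in each direction among 9 say nothing particular of the list. The bHLH factor MYC1, known as a partner of MYBA1, had 64.5, 42.5 and 44.3 RPKM in traces and 88.3, 59.5 and 71.3 in seeds. The WD40 protein gene WDR1 had 106, 93.7 and 143 RPKM in traces and 84.6, 75.7 and 86 in seeds. Neither MYC1 nor WDR1 passed (limma adjusted p = 0.157 and 0.153). The riser was the MYB repressor MYBC2-L3, 2.85 higher in traces on the log2 scale (adjusted p = 0.00615 in limma). It had 12.4, 13.7 and 13.4 RPKM in traces and 0.66, 2.07 and 0.491 in seeds. Among the seeds only replicate 2 exceeded 1 RPKM, so MYBC2-L3 entered the test through the traces. Its gap between classes was thus in part a condition of being tested. MYBPA1, the MYB activator of tannin genes, fell by 1.34 on the log2 scale (adjusted p = 0.0179 in limma).

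Of 5 further genes on the anthocyanin side, 2 were expressed above the filter and neither passed. The acyltransferase 3AT, which acylates anthocyanins, had 5.33, 18.1 and 36 RPKM in traces and 18.9, 5.21 and 11.3 in seeds, so that its classes overlapped widely. ABCC1, an ABC transporter known to carry glucosylated anthocyanins, had 75.8, 132 and 167 RPKM in traces and 239, 161 and 175 in seeds. Its log2 fold change was -0.66 (limma adjusted p = 0.206), and seedless replicate 3 exceeded the lowest seed. Transport genes ranged from GST4, listed at 0 in every library, to ABCC1 at 75.8 RPKM or more, and AM1 was the member that separated the classes past the test.

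**Figure D3:**
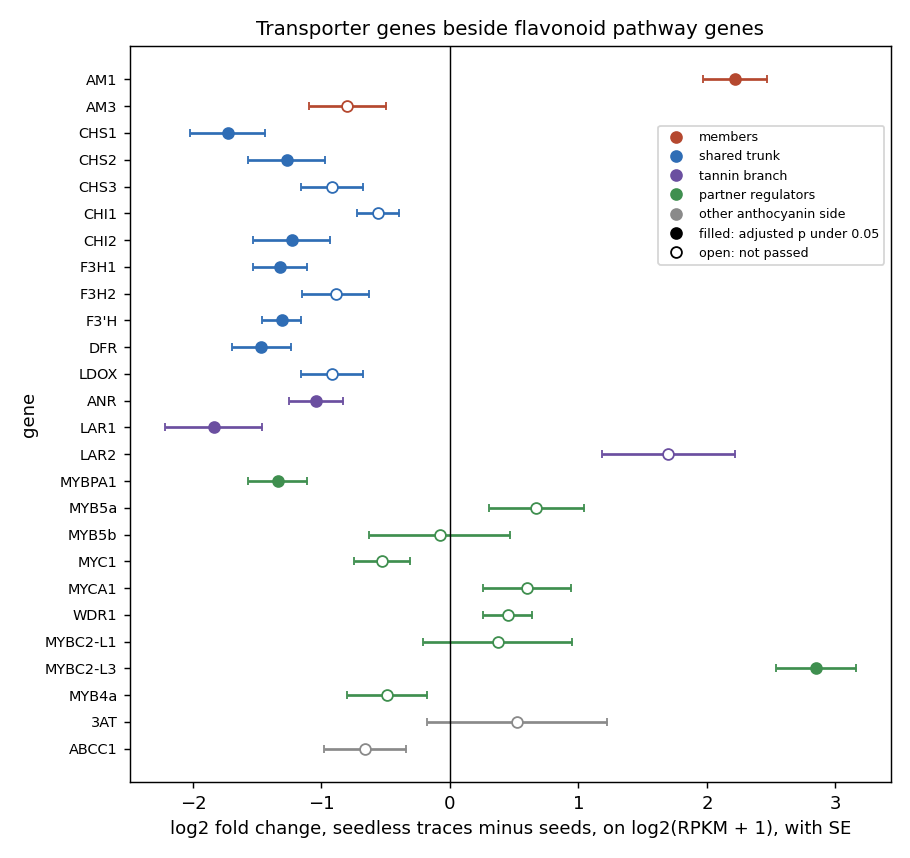
Log2 fold changes (seedless traces minus seeds, on log2(RPKM + 1)) with their SE, for AM1, AM3 and the 24 listed pathway genes that were tested. Colours give the list, filled points passed at an adjusted p under 0.05 and open points did not. AM1 lies at 2.22, on the opposite side of 0 from the 10 trunk genes.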

How the data were processed

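The authors deposited a table of RPKM values for 6 libraries; per the file headers, identifiers are of the 12X V1 annotation. Tools listed in the submitters' processing notes, without roles, are edgeR 2.2.6, HTSeq 0.5.4p5 and TopHat2 2.0.13; genome build and strand setting are not given in the sources used here. Libraries were stranded mRNA, with 15 PCR cycles, per the labels' protocols. Classes follow the labelled phenotype, since titles of the seeded samples read Seededless. Of 29548 rows, 12 with a doubled decimal point were left out.

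Whole reads behind the RPKM were found as the shortest whole gene length that turns all 6 values into whole numbers within rounding. This recovered 96.7% of the 24536 genes above 0, at a chance fit of at most 0.01. Recovered reads sum to 93.8% to 104.3% of the library totals, so the totals behind the RPKM are not plain sums of gene reads. Values of log2(RPKM + 1), which understates changes of low genes, were compared with limma 3.58.1 in R 4.3.3 (eBayes with trend, two-sided, Benjamini-Hochberg over the 18749 genes that reached 1 RPKM in 3 or more libraries, threshold 0.05). Both steps were tested on simulated data first. In its simulation the limma step called 27 of 100 genes changed by 1 in log2 terms and 58 of 100 changed by 2. It called 3 of 18549 unchanged genes. A gene that did not pass may therefore still differ between the classes. Permutation tests and exact intervals used scipy 1.17.1, and figures matplotlib 3.10.9, in Python 3.11.15.

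Gene names follow the published grapevine catalogue from memory and are not in the table. None of the table's identifiers (0) occurs in the RefSeq gene table (ASM3070453v1). Of the 7 member names 4 occur there, each on the chromosome named in its identifier, and of 27 pathway names 21, of which 20 match in chromosome and ANR has an unplaced identifier. MYBA1 and MYBA3 match the same entry there, as do CHI1 and CHI2, so the check does not tell these apart. No sequences were used. Members and lists were chosen with earlier results of these data known. Genes named are the members, the pathway list, the 5 identifiers on either side of each member, and the 2 genes most correlated with a member past the test.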

Additional observations from a re-analysis of the deposited data

How the results depend on the processing

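The count of 1 member called, its identity (AM1) and the direction of AM3 and of the ratio of AM1 to AM3 were the same under every alternative run. The direction of the ratio follows from those of AM1 and AM3 and adds nothing to them. The log2 fold change of AM1 ranged from 2 to 2.35 and that of AM3 from -0.96 to -0.6 over the fits that each left out 1 library, and the difference between AM1 and AM3 from 2.86 to 3.26. With a pseudocount of 0.1 AM3 was at -1.64 and the difference between AM1 and AM3 at 4.00, and with voom on recovered reads AM3 was at -1.79. In recovered reads scaled by the library total, an alternative chosen after seeing the data, that difference was 3.62, and with no pseudocount, also chosen then, 4.27. Silent in both classes were 3 genes by reads and 4 (with UFGT) under 0.5 or 1 RPKM. Under the limit of 1 RPKM AM3 also counted as silent in traces, which made 5 genes there against 4 in seeds. Genes called over the table numbered 2303, 3603 with library weights, 350 at adjusted p under 0.01 and from 429 to 2909 over the leave-out fits. Pathway genes called numbered 10, 2 at adjusted p under 0.01 and from 2 to 9 over the leave-out fits; the cause was not tested. Of 458 comparisons for 27 other named genes, 386 changed neither direction nor call, 54 lost the call, 14 gained one and 4 turned, none past the threshold: MYB5b to 0.22 and 0.29 without seedless replicate 2 or 3 (its range over leave-out fits was -0.75 to 0.29), MYBC2-L1 to -0.20 without seedless replicate 1 (range -0.20 to 0.94), and 3AT to -0.07 without seedless replicate 3 (range -0.07 to 1.21). With a replicate block, 1714 genes, 11 pathway genes and AM1 passed (limma adjusted p = 0.024 for AM1); the numbers name different hybrids, and deviations of same-numbered libraries correlated at 0.0662, 0.179 and 0.0979. Depth limits what the silent genes can show, since 3 reads on 1 kb are worth up to 0.456 RPKM in a library.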

Other observations

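UFGT, with 7 reads in all, lay among expressed neighbours. All 10 identifiers around it were expressed above the filter, 1 rose and 1 fell in seedless traces. The riser, VIT_16s0039g02280, gave 38.1, 13 and 15.9 RPKM in the traces, by replicate number, and was listed at 0 in each seed library. It held 127 reads over the traces, which is at least 49 times the rate that 3 reads over the seeds would give. Its log2 fold change of 4.39 passed (limma adjusted p = 0.00503), but it entered the test only through the 3 traces, so the gap was a condition of being tested, and seedless replicate 1 was well above the other traces. The gene that fell, VIT_16s0039g02240, had 9.57 RPKM on average in traces and 19.3 in seeds (limma adjusted p = 0.0484). This call did not hold without the filter (limma adjusted p = 0.0631), and over the alternative fits the adjusted p reached 0.157. Over all members, 3 of 22 tested neighbours were called, or 13.6%, against 12.3% of all genes tested, a share near the background.

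Relative to the tannin enzyme ANR, the RPKM of AM1 was 51.6%, 31.7% and 25.8% in the traces, by replicate number. In the seeds it was 3.87%, 4.86% and 1.81%. The classes did not overlap, and the difference holds both the higher AM1 and the lower ANR of the traces.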
